A study of Mus musculus with 11 samples.

Results

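Cytochrome P450 genes were followed in mRNA bound to the ribosomes of hippocampal astrocytes from fasted mice, from mice on a ketogenic diet and from fed mice. The genes were chosen by their symbols, as those made of Cyp, a family number, a subfamily letter and a gene number. Cyp46a1 was left out, and Cyp51, whose symbol has another form, did not enter. Each gene was read from the probe set that is paired with its symbol alone, and a gene with several such sets took the one with the highest mean over the 11 arrays. By this rule 56 P450 genes were found among the 20259 genes measured, in 13 families and 33 subfamilies. They were grouped around Cyp4f15 because its lower level in ketogenic than in fed samples was already known, so that difference is given as a description, and the counts between ketogenic and fed samples leave it out.

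P450 enzymes are haem proteins that use oxygen and electrons from NADPH to hydroxylate or epoxidise lipophilic molecules. Enzymes of the endoplasmic reticulum receive their electrons from cytochrome P450 oxidoreductase, at times with the help of cytochrome b5, and mitochondrial enzymes receive them from ferredoxin. Families 1 to 3 are best known for drugs and other foreign compounds. In the brain the Cyp2 and Cyp4 families are also known for turning arachidonic acid into epoxides and hydroxy acids, and astrocytes are a source of epoxides that act on blood vessels.

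The mice carried Ribo-Tag, an epitope tag on a ribosomal protein, under Aldh1l1-Cre, which is active in astrocytes, and the fasted, ketogenic and fed mice shared these alleles. The comparison rests on 3 fasted, 4 ketogenic and 4 fed arrays of hippocampal pull-downs from adult mice, whose strain and sex are not given for these arrays (the methods set 9 weeks as the usual age of fed and fasted mice and name none for the tagged mice). Ketogenic and control mice received a ketogenic diet, high in fat and low in carbohydrate, or normal chow for 4 weeks, while the fasting time is 18 h by the protocol and 24 h by another label. Samples are called biological and numbered within their diet with nothing more said of the animals, so that p-values measure the spread between these samples.

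Values are log2 of the signal after RMA (robust multi-array averaging), and a log2 difference of 1 is a doubling of the signal. Probe sets differ in how strongly they respond, so levels of different genes were not ranked as expression. Odorant receptor genes (Olfr), which are silent in most tissues, show how an unexpressed gene reads on these arrays. The 95th percentile of the 862 Olfr genes was 3.96, and 34.8% of all genes lay at or below it. As whole arrays, fasted 2 and fed 2 differed most from the rest, with limma array weights of 0.458 and 0.251, and the results that rest on them are also given without them. All 11 measured astrocyte markers lay above the Olfr level, but so did all 10 neuron markers and all 7 oligodendrocyte markers, so RNA of other cell types was present too.

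Of the 56 P450 genes, 24 lay above the Olfr level, with means over the 11 arrays between 3.96 and 8.57, and 32 lay at or below it, with means between 2.14 and 3.93. The genes just above the line were Cyp26c1 (3.96) and Cyp2d34 (3.97), and those just below it were Cyp4b1 (3.93) and Cyp2t4 (3.88). Some genes above the line by the mean over all arrays were below it in single diets. These were Cyp26c1 (fasted mean 3.80), Cyp2d34 (fasted 3.84, ketogenic 3.92), Cyp1b1 (ketogenic 3.80) and Cyp2w1 (fasted 3.93). Cyp2d22, the mouse counterpart of the human drug-metabolising enzyme CYP2D6, had a mean of 8.57. Cyp2j9, a brain hydroxylase of arachidonic acid in the mouse, had one of 7.76. Among the fatty acid and leukotriene hydroxylases of the Cyp4f subfamily, Cyp4f15 had a mean of 6.86, Cyp4f14 of 5.999 and Cyp4f13 of 5.04.

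The Cyp2 family was the most numerous, with 10 of 27 genes above the Olfr level, and the Cyp4 family followed with 4 of 8. Above the line from the Cyp4 family were the 3 Cyp4f genes and Cyp4x1, a P450 known for its expression in brain (5.16). Above it from the Cyp2 family, beside Cyp2d22 and Cyp2j9, were Cyp2j6 (5.72), Cyp2j12 (4.24), Cyp2c38 (6.68), Cyp2u1 (4.88), Cyp2s1 (4.87), Cyp2d9 (4.18), Cyp2w1 (4.04) and Cyp2d34. Single genes of other families were Cyp1b1 (4.05), Cyp3a44 (6.08), Cyp7b1 (4.48), Cyp20a1 (5.87), Cyp21a1 (5.49) and Cyp27a1 (4.31). Probe sets that Cyp3a44 shares with other Cyp3a genes read 2.67 and 2.34, below the Olfr level. The set that Cyp21a1 shares with Cyp21a2-ps read 2.95, also below it. From the Cyp11 and Cyp26 families Cyp11a1 (4.38), Cyp11b2 (4.00), Cyp26b1 (4.30) and Cyp26c1 were above it.

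The remaining genes were read at the level of silent genes. Of the 17 Cyp2 genes at or below the Olfr level, 14 had no unadjusted p under 0.05 in any comparison, with means between 3.88 (Cyp2t4) and 2.14 (Cyp2c55). The 4 such genes of the Cyp4 family ran from 3.93 (Cyp4b1) to 2.59 (Cyp4a14), and the 3 of the Cyp3 family from 2.43 (Cyp3a13) to 2.18 (Cyp3a57). Cyp1a2 (2.88), Cyp7a1 (2.70), Cyp8b1 (3.21), Cyp17a1 (2.94), Cyp26a1 (3.55) and Cyp27b1 (3.26), of which several are known from liver, kidney or endocrine glands, also had no such p. The other 5 genes at or below the line, Cyp1a1 (2.80), Cyp2b9 (3.75), Cyp2d26 (3.73), Cyp2g1 (2.49) and Cyp39a1 (3.64), had an unadjusted p under 0.05 in at least 1 comparison and are described there. The P450 genes are closely related in sequence, and 32 further probe sets were shared by several genes with a P450 among them, so cross-hybridization between neighbours of a subfamily cannot be told apart from their own signal.

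The promoters shown here belong to Cyp4f15 and to the 3 other P450 genes called lower in ketogenic than in fed samples, on which the results turn. The sequences are from RefSeq on GRCm38.p6 and span 250 bases before to 50 bases after the listed start, read 5′ to 3′ on the strand of the gene. Cyp4f15 lies at chr17:32685409-32685708 (plus strand) and Cyp4f14 at chr17:32917307-32917606 (minus strand, the first entry of 4 listed starts). Cyp2j9 lies at chr4:96591436-96591735 (minus strand) and Cyp20a1 at chr1:60343050-60343349 (plus strand). Capitals mark a CCAAT motif on either strand (ATTGG when read on the other strand).
Cyp4f15: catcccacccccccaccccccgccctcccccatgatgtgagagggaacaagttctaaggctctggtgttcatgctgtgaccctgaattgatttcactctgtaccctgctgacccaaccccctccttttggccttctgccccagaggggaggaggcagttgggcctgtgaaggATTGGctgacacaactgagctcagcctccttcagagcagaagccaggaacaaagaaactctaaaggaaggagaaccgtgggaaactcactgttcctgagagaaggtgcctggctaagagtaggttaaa
Cyp4f14: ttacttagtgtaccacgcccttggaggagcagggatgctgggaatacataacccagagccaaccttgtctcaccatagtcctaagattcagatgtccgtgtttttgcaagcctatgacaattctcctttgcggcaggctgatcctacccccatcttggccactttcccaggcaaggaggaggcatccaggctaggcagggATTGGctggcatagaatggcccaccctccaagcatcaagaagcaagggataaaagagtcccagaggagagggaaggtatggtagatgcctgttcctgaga
Cyp2j9: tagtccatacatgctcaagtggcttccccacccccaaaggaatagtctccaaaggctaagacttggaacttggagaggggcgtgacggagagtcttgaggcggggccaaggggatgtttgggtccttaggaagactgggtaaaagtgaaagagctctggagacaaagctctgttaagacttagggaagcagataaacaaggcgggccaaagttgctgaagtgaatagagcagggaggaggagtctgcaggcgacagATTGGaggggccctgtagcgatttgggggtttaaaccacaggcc
Cyp20a1: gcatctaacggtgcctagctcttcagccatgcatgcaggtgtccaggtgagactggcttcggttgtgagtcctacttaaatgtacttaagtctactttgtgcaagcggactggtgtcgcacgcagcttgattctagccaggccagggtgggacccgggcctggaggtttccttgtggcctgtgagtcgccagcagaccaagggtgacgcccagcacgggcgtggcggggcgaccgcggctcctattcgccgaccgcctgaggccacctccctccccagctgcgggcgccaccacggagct
All 56 genes matched RefSeq by gene ID under the same symbol, and 41 had a promoter entry.

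CCAAT was found in 3 of the 4 promoters, that of Cyp4f15 among them, and in 37.9% of 27025 promoters of the same length. The 4 were picked by their values in these data and are too few to show a difference from that share. Its first base was 78 bases before the start of Cyp4f15, 50 bases before that of Cyp4f14 and 6 bases after that of Cyp2j9. The TATA box (TATAAA), the nuclear receptor motif AGGTCA and the glucocorticoid receptor motif TGTTCT were searched on both strands and were in none of the 4 windows. They were in 14.2%, 16.0% and 19.0% of all promoters, and no match overlapped another. A match is a description of the letters and not a binding site. In the RefSeq gene order Cyp4f14 and Cyp4f13 are direct neighbours on chromosome 17, and Cyp2j6 and Cyp2j9 are direct neighbours on chromosome 4, where Cyp2j8 and Cyp2j5 stand on either side of them.

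Beside Cyp4f15, 3 of 55 P450 genes were lower in ketogenic than in fed samples and none was higher (limma, adjusted p under 0.05 over 20259 genes), beside 0.765% of all genes lower and 0.118% higher. The 3 were Cyp4f14, Cyp2j9 and Cyp20a1. The count of 3 became 0 without ketogenic array 1, 2 or 4 and 1 without fed array 3 or 4. The share of all genes called in either direction fell as well, from 0.884% to 0.00987%, 0.00494% and 0.00987% without those ketogenic arrays. Without fed array 3 or 4 it was 0.237% and 0.242%. At an unadjusted p under 0.05, 10 of the 55 genes were lower (6.53% of all genes) and 2 were higher (7.39% of all genes). The groups did not overlap for 8 of the 55 genes, 7 lower and 1 higher in ketogenic samples, beside 10.7% of all genes (960 lower and 1203 higher). All 8 were among the genes above the Olfr level, as were 1896 of the 2163 genes without overlap. The median log2 fold change was -0.03 over the 55 genes and 0.01 over all genes. It was -0.09 over the 23 of them above the Olfr level, against 0.04 over the 13218 genes above that level. With each array centred over all probe sets the median of the 56 genes, Cyp4f15 included, was 0.01 and that of all genes 0.05.

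**Figure D1:**
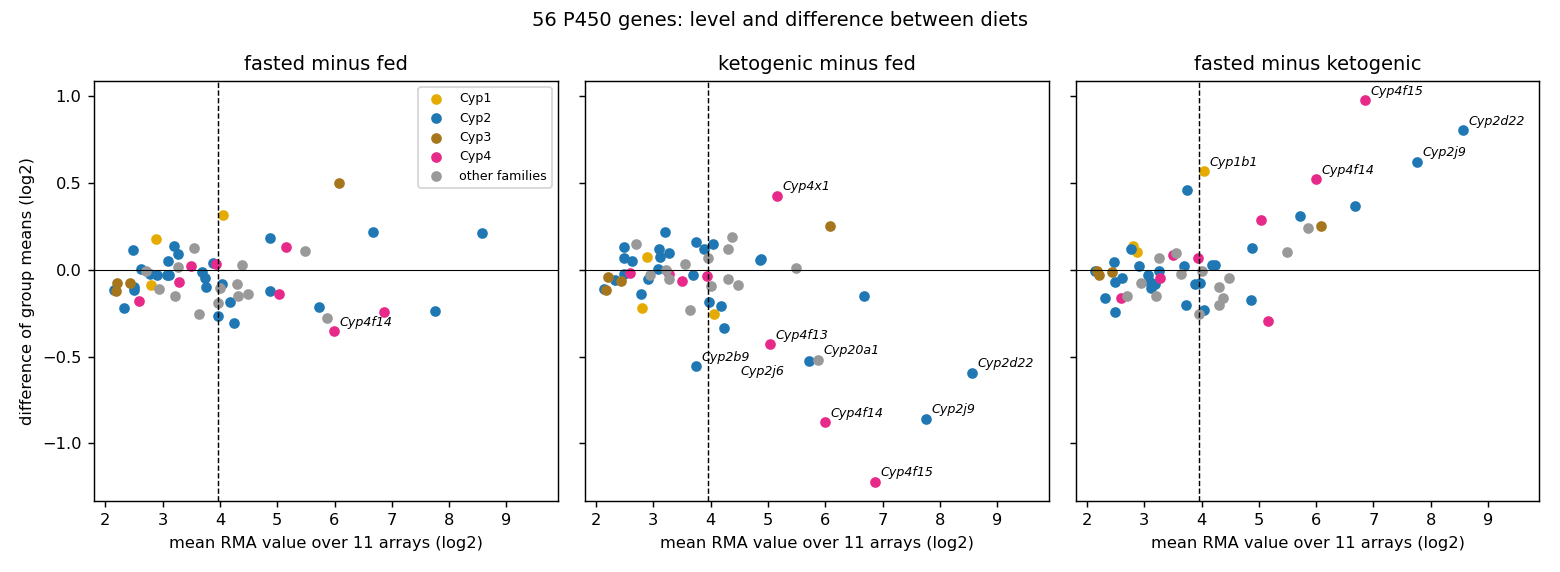
Mean RMA value over 11 arrays (log2, horizontal) against the difference of the group means (log2, vertical) for the 56 P450 genes in the 3 comparisons, with colours for the families and names for the genes at an unadjusted p under 0.01. The dashed line is the Olfr level of 3.96, and the points far from 0 lie mostly to the right of it, with Cyp2b9 to the left.

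Of the 3 Cyp4f genes above the Olfr level, Cyp4f14 was called lower in ketogenic samples, Cyp4f13 missed the threshold and Cyp4f15 is the gene the set was chosen around. Cyp4f14, a leukotriene B4 hydroxylase in the mouse, had values of 6.16, 5.86 and 6.15 on the fasted arrays, 5.44, 5.53, 5.63 and 5.56 on the ketogenic arrays and 6.28, 6.23, 6.61 and 6.54 on the fed arrays. Each ketogenic array was below every fasted and every fed array, and each fasted array was below every fed array. Cyp4f14 fell 1.84-fold in ketogenic against fed samples (log2 fold change -0.88 with a 95% interval of -1.11 to -0.64, standard error 0.11, limma adjusted p = 0.0138). The adjusted p from limma became 0.0586, 0.061 and 0.0691 without ketogenic array 1, 2 or 4, and the call was kept without any other single array.

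Cyp4f15, the gene around which the set was chosen, had values of 7.49, 6.67 and 7.21 on the fasted arrays, 6.20, 6.002, 6.15 and 6.25 on the ketogenic arrays and 7.02, 7.08, 7.86 and 7.52 on the fed arrays. The ketogenic arrays were again below all others, while fasted and fed arrays overlapped. Its mean was 6.15 ± 0.11 in ketogenic samples (SD, n = 4) and 7.37 ± 0.40 in fed samples (SD, n = 4), a difference of -1.22 log2. Cyp4f13, the neighbour of Cyp4f14, had values of 4.64, 4.83, 4.95 and 4.80 on the ketogenic arrays and 5.10, 5.12, 5.37 and 5.34 on the fed arrays. The groups did not overlap, but the gene missed the threshold (-0.43 log2, standard error 0.09, limma adjusted p = 0.054). The other Cyp4f genes, Cyp4f18 and Cyp4f39, were below the Olfr level and differed by -0.07 and -0.03.

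Cyp4x1 had the opposite sign to the Cyp4f genes. It read 5.35, 5.56, 5.18 and 5.47 on the ketogenic arrays and 4.96, 4.80, 5.07 and 5.04 on the fed arrays. Every ketogenic array was above every fed array, and the difference was 0.42 log2 (standard error 0.11, 95% interval 0.17 to 0.68), which did not pass (adjusted p = 0.123 from limma).

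**Figure D2:**
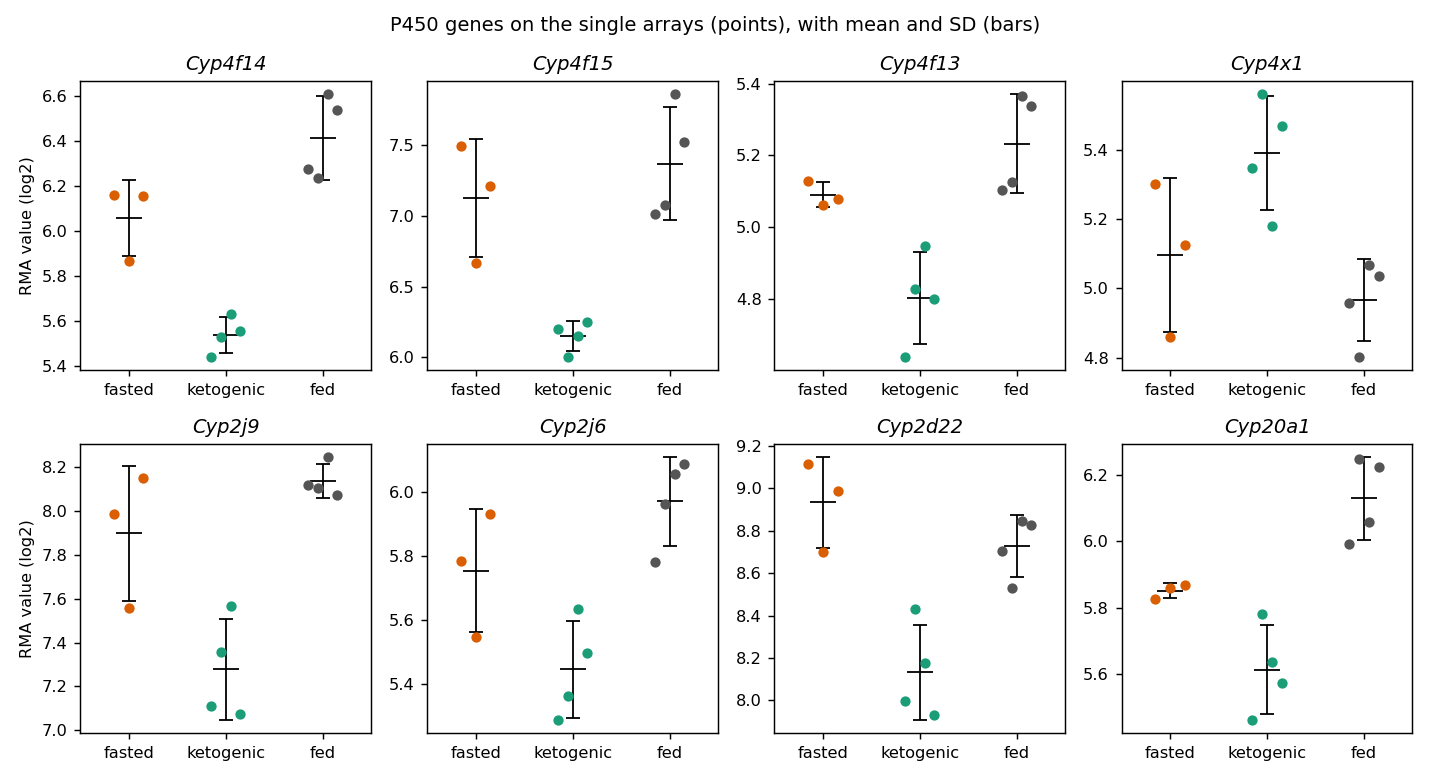
RMA values (log2) of 8 P450 genes on each fasted, ketogenic and fed array (points), with the mean and SD of each diet (black bars). The ketogenic arrays lie below the fed arrays for 7 of the genes and above them for Cyp4x1. Among the 7 is Cyp4f15, whose difference was known when the genes were chosen.

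In the Cyp2 family, Cyp2j9 was lower in ketogenic samples. It had values of 7.99, 7.56 and 8.15 on the fasted arrays, 7.11, 7.36, 7.57 and 7.08 on the ketogenic arrays and 8.12, 8.11, 8.25 and 8.07 on the fed arrays. The fed arrays lay close together and above every ketogenic array, and ketogenic array 3 and fasted array 2 had almost the same value. Cyp2j9 fell 1.81-fold in ketogenic against fed samples (log2 fold change -0.86 with a 95% interval of -1.16 to -0.55, standard error 0.14, limma adjusted p = 0.0224). The call was kept without any fasted array, fed array 2 or ketogenic array 3 and was lost without each of the others, with adjusted p from limma of 0.0522 without fed array 1, 0.0696 and 0.0639 without fed array 3 or 4, and 0.0926, 0.0742 and 0.0883 without ketogenic array 1, 2 or 4.

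Its neighbour Cyp2j6, which oxidises fatty acids in the mouse, had values of 5.29, 5.36, 5.63 and 5.50 on the ketogenic arrays and 5.78, 5.96, 6.05 and 6.09 on the fed arrays. The groups did not overlap, and the difference of -0.53 log2 (standard error 0.11) just missed the threshold (adjusted p = 0.0575 from limma). It passed without ketogenic array 3 (adjusted p = 0.0492) and without fasted array 2 (adjusted p = 0.044), whose values enter the estimate of the spread. Cyp2j12 had a difference of -0.33 with a wide interval of -0.87 to 0.21, and the 3 Cyp2j genes below the Olfr level, Cyp2j5, Cyp2j8 and Cyp2j13, differed by -0.03, 0.07 and -0.06.

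Cyp2d22 had values of 9.12, 8.70 and 8.99 on the fasted arrays, 7.997, 8.43, 8.17 and 7.93 on the ketogenic arrays and 8.71, 8.53, 8.85 and 8.83 on the fed arrays. The ketogenic arrays were below all others. The difference between ketogenic and fed samples was -0.59 log2 (standard error 0.13) and did not pass (adjusted p = 0.067 from limma). It passed without fasted array 2 and fed array 2 (-0.66, adjusted p = 0.0422 from limma). In that fit 4 P450 genes beside Cyp4f15 were called, against 1.05% of all genes. Cyp2d9, known in the mouse as a testosterone hydroxylase of male liver, had a difference of -0.21 (unadjusted p = 0.0184, adjusted p = 0.25 from limma), and the groups did not overlap. Its subfamily members Cyp2d34 and Cyp2d26 differed by -0.19 and 0.16, of which Cyp2d26 lay below the Olfr level. Outside these subfamilies Cyp2b9, a gene of the phenobarbital-inducible subfamily of liver, differed by -0.55 (adjusted p = 0.114) at a mean of 3.75, below the Olfr level. Cyp2c38, Cyp2u1, Cyp2s1 and Cyp2w1 differed by -0.15, 0.06, 0.05 and 0.15.

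Cyp20a1, a P450 without an assigned substrate and the only member of its family, was lower in ketogenic samples. It had values of 5.83, 5.86 and 5.87 on the fasted arrays, 5.46, 5.78, 5.63 and 5.57 on the ketogenic arrays and 5.99, 6.25, 6.06 and 6.22 on the fed arrays. The 3 diets did not overlap, with the fasted arrays between the ketogenic and the fed arrays. Cyp20a1 fell 1.43-fold in ketogenic against fed samples (log2 fold change -0.52 with a 95% interval of -0.71 to -0.33, standard error 0.09, limma adjusted p = 0.025). The call was lost without fed array 3 or 4 (adjusted p = 0.0566 and 0.0767 from limma) and without ketogenic array 1, 2 or 4 (adjusted p = 0.0926, 0.061 and 0.0992).

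P450 genes of sterols, steroid hormones, retinoic acid and vitamin D did not pass in any comparison. Of the 5 genes for sterols, oxysterols and bile acids, 2 lay above the Olfr level, the oxysterol hydroxylase Cyp7b1 and the mitochondrial sterol hydroxylase Cyp27a1. Their differences between ketogenic and fed samples were -0.09 (95% interval -0.29 to 0.11) and -0.05 (95% interval -0.30 to 0.19). Cyp39a1, a hydroxylase of brain-derived hydroxycholesterol, differed by -0.23 (unadjusted p = 0.0524) but lay below the Olfr level at 3.64. The 4 measured steroid hormone genes ran from -0.09 to 0.19. Among them were Cyp11a1, which cleaves the side chain of cholesterol (0.19), Cyp11b2, the aldosterone synthase (-0.09), and the 21-hydroxylase Cyp21a1 (0.01, 95% interval -0.47 to 0.48). The 3 Cyp26 genes, which break down retinoic acid, ran from 0.03 to 0.12, with Cyp26b1 at 0.12 and Cyp26c1 at 0.06. The vitamin D genes Cyp2r1 (0.22) and Cyp27b1 (-0.06) were both below the Olfr level.

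The Cyp1 and Cyp3 families held 1 gene each above the Olfr level. Cyp1b1, which hydroxylates estradiol, had a difference of -0.25 between ketogenic and fed samples (unadjusted p = 0.0403, adjusted p = 0.333 from limma). Cyp1a1, a target of the dioxin receptor, had one of -0.22 at a mean of 2.80, below the Olfr level. Cyp3a44, known as a P450 of liver, ran from 5.08 to 7.82 on single arrays, and its difference of 0.25 had an interval of -0.88 to 1.38, too wide to show a difference of the size seen for Cyp4f14.

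**Figure D3:**
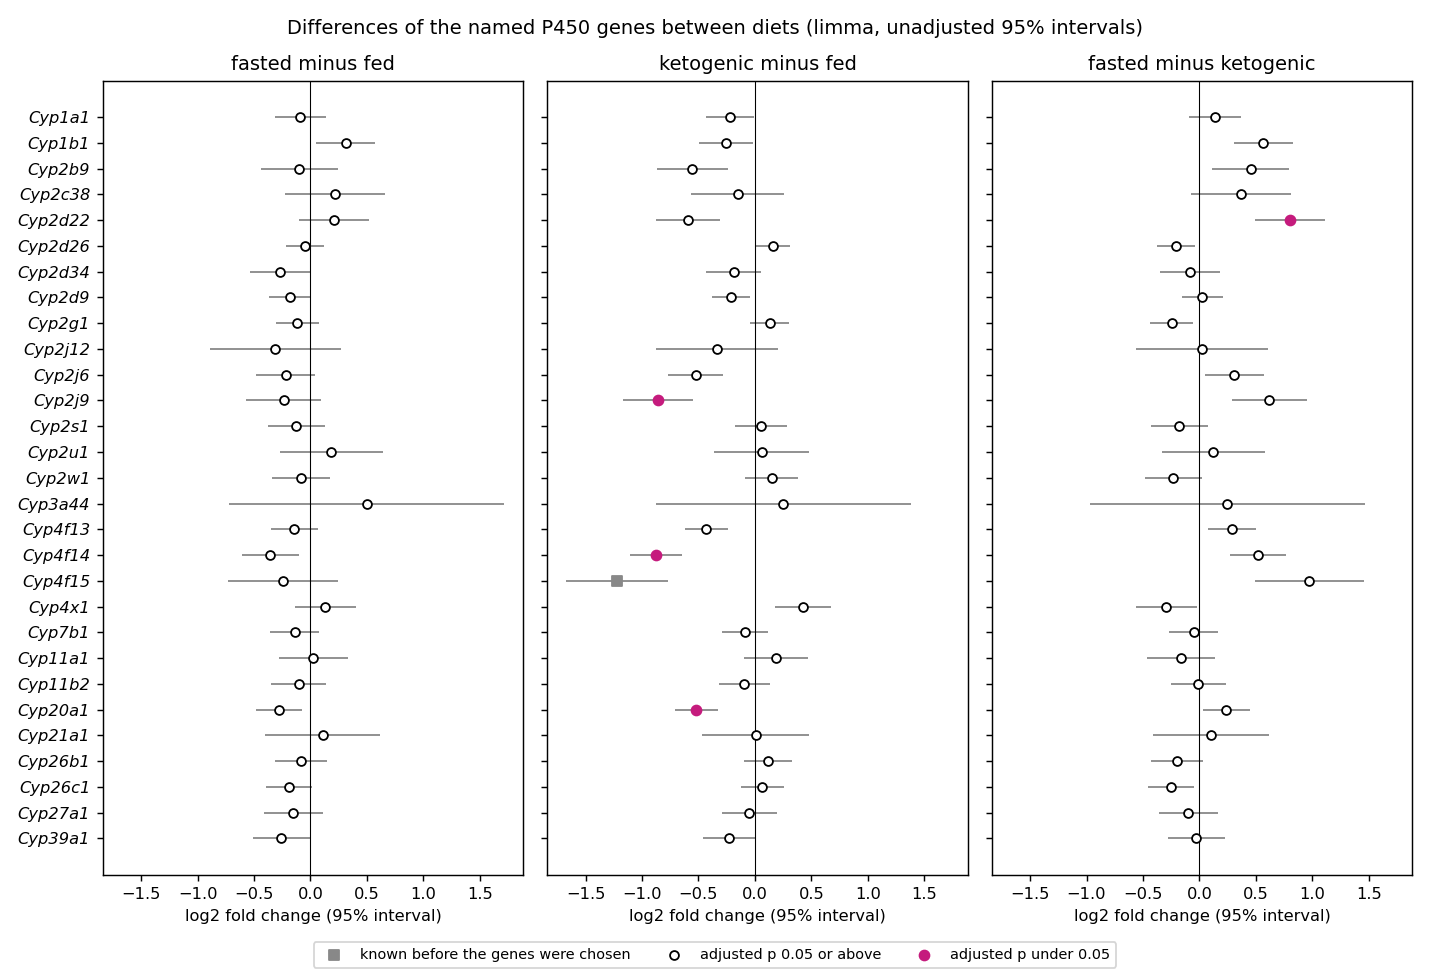
Log2 fold changes with 95% intervals (limma, not adjusted) of the 29 P450 genes that lay above the Olfr level or had an unadjusted p under 0.05 in any comparison. Filled circles passed at an adjusted p under 0.05, and the square is Cyp4f15, whose difference between ketogenic and fed samples was known when the genes were chosen.

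Astrocyte markers were lower on the same ketogenic arrays. The mean log2 value of the 11 markers was 7.87 to 8.01 on the fasted arrays, 7.37 to 7.64 on the ketogenic arrays and 7.93 to 8.03 on the fed arrays. All 11 were lower in ketogenic than in fed samples at an unadjusted p under 0.05 (5 at an adjusted p under 0.05, limma), with a median of -0.56, beside 6.53% and 0.765% of all genes lower at these thresholds. The 5 became 0 without ketogenic array 1, 2 or 4, while 10 or 11 kept an unadjusted p under 0.05 and the median stayed between -0.62 and -0.48 without any single array. Without ketogenic array 1, 2 or 4 the share of all genes called was 0.00987%, 0.00494% and 0.00987%. Aldh1l1, whose promoter drove the Cre, differed by -0.73 and the water channel Aqp4 by -0.60. In bulk samples fewer cells of a type and less RNA per cell cannot be told apart, and the part of the astrocyte markers in the P450 results was not tested. The differences of Cyp20a1, Cyp2j6, Cyp2d22 and Cyp4f13 lay within the range of the astrocyte markers, which ended at -0.82. Those of Cyp4f14 (-0.88), Cyp2j9 (-0.86) and Cyp4f15 (-1.22) were below every astrocyte marker. That of Cyp4x1 was above every one, as were those of most P450 genes, since all 11 markers had negative differences. Cyp4f14 and Cyp2j9 were below the lowest marker by less than their standard errors of 0.11 and 0.14. The difference of Cyp4f15 was known when the genes were chosen. Against the marker median the 3 genes were lower by 0.32, 0.30 and 0.66.

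The list of 4 oligodendrocyte precursor markers was also lower on the ketogenic arrays (6.42 to 6.56) than on the fed arrays (6.74 to 6.93), and the 7 oligodendrocyte markers read 7.55 to 7.85 on the fasted, 7.71 to 7.90 on the ketogenic and 7.97 to 8.03 on the fed arrays. The ranges of the ketogenic and fed arrays overlapped for the lists of neurons (10 genes), endothelial and mural cells (10 genes, 1 of them at or below the Olfr level), microglia (7 genes) and ependymal, choroid plexus and meningeal cells (8 genes). Of the endothelial and mural list, with a median of -0.37, the transporter Slco1c1 (-0.91, adjusted p = 0.0412 from limma) and the pericyte receptor Pdgfrb (-0.62, adjusted p = 0.0257) were lower in ketogenic than in fed samples, while the tight junction gene Cldn5 differed by 0.20. Of the neuron list 3 genes, Rbfox3 (0.22), Slc17a7 (0.27) and Nefl (0.28), read higher on every ketogenic than on every fed array without passing. So did 1203 of all 20259 genes, passing or not. The neuron list went both ways, with 6 genes higher and 4 lower and a median of 0.07. At an unadjusted p under 0.05 (limma) 3 were higher and 1 was lower. Slco1c1, Slc17a7 and Nefl were named after their values were seen, and the part of these cells in the P450 results was not tested.

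**Figure D4:**
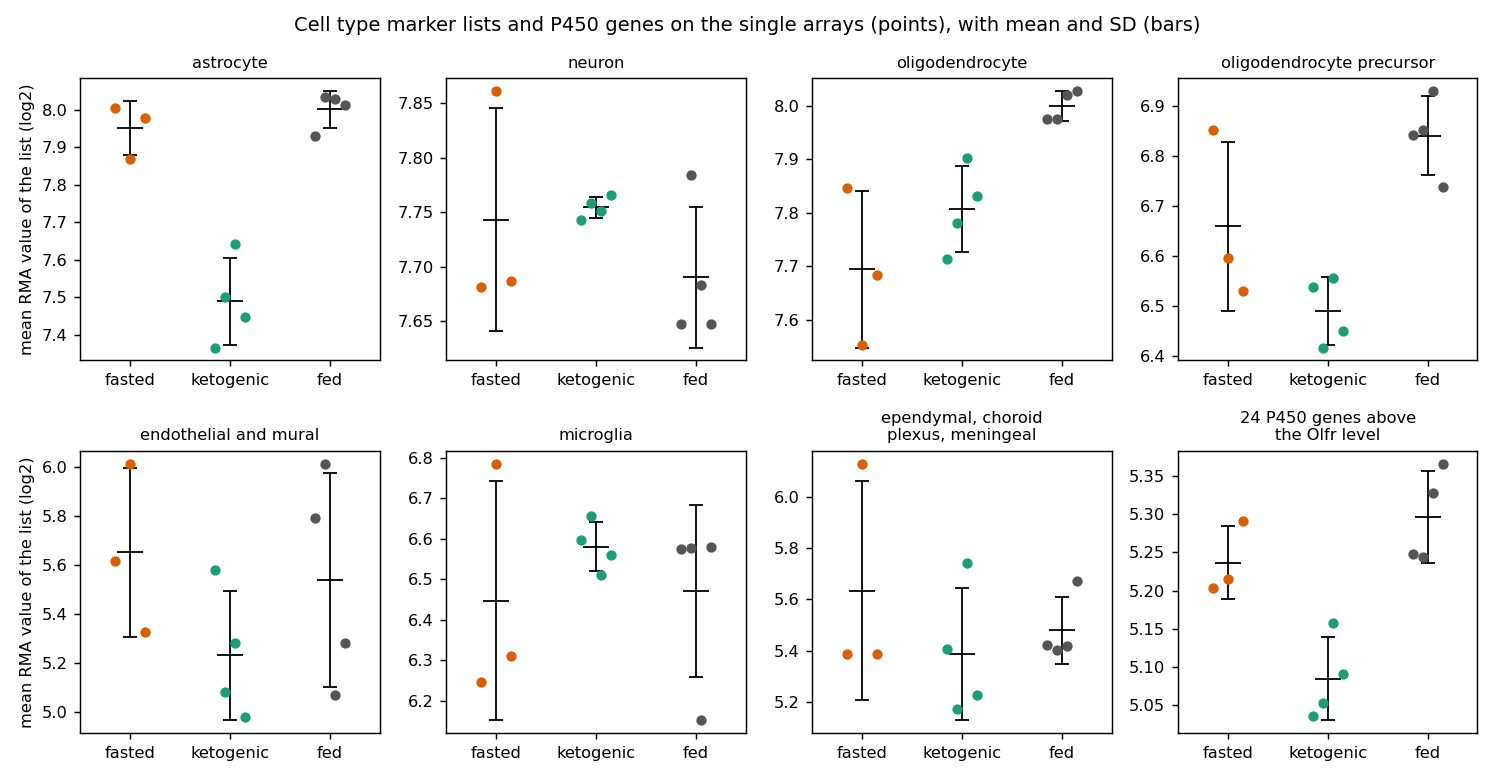
Mean RMA value (log2) of 7 cell type marker lists and of the 24 P450 genes above the Olfr level on each fasted, ketogenic and fed array (points), with the mean and SD of each diet (black bars). The ketogenic arrays lie below the fed arrays for the astrocyte, oligodendrocyte and oligodendrocyte precursor lists and for the P450 genes. The P450 mean includes Cyp4f15, whose difference between ketogenic and fed samples was known when the genes were chosen.

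Between fasted and fed samples no P450 gene was called (0 of 56), and limma called 0% of all genes lower and 0% higher. At an unadjusted p under 0.05, 5 P450 genes were lower (4.82% of all genes) and 1 was higher (2.26% of all genes). The groups did not overlap for 4 P450 genes, 3 lower and 1 higher in fasted samples, beside 6.43% of all genes (866 lower and 437 higher). The median over the 56 genes was -0.08, against -0.02 over all genes. The lower genes were Cyp4f14 (log2 fold change -0.36, adjusted p = 0.607 from limma), Cyp20a1 (-0.28, adjusted p = 0.607), Cyp2d9 (-0.18), Cyp2d34 (-0.27) and Cyp39a1 (-0.26). Of the 5, Cyp39a1 alone was below the Olfr level by its mean over all arrays, and Cyp2d34 was below it in fasted (mean 3.84) but not in fed samples (4.11). Cyp4f15 differed by -0.25 with an interval of -0.73 to 0.24. Without fasted array 2 and fed array 2, 3 P450 genes had an unadjusted p under 0.05.

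Cyp1b1 was the 1 gene higher in fasted samples at an unadjusted p under 0.05. Its values were 4.21, 4.51 and 4.39 on the fasted arrays, 3.96, 3.82, 3.93 and 3.51 on the ketogenic arrays and 4.17, 4.09, 3.93 and 4.04 on the fed arrays. Every fasted array was above every fed and every ketogenic array, and the ketogenic and fed arrays overlapped. The difference between fasted and fed samples was 0.31 log2 (standard error 0.12, unadjusted p = 0.0232, adjusted p = 0.685 from limma).

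Between fasted and ketogenic samples 1 P450 gene was higher in the fasted group and none was lower (limma, adjusted p under 0.05), beside 0.222% of all genes higher and 0.0592% lower. These arrays include the ketogenic arrays of the comparison with fed samples, so the comparisons are not independent. The gene was Cyp2d22, which was 1.74-fold higher in fasted samples (log2 fold change 0.80 with a 95% interval of 0.49 to 1.11, standard error 0.14, limma adjusted p = 0.0488). Every fasted array was above every ketogenic array. The call was lost without any 1 of the 3 fasted and 4 ketogenic arrays. The adjusted p from limma was then 0.206, 0.0586 and 0.144 without fasted array 1, 2 or 3, and 0.152, 0.0677, 0.075 and 0.164 without ketogenic array 1, 2, 3 or 4. Of the fed arrays, which enter the estimate of the spread, leaving out array 1, 3 or 4 ended it too (0.0771, 0.0724 and 0.0737) and leaving out array 2 did not.

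At an unadjusted p under 0.05, 9 P450 genes were higher in fasted than in ketogenic samples (4.19% of all genes) and 4 were lower (6.43% of all genes). The groups did not overlap for 10 P450 genes, 6 higher and 4 lower, beside 13.9% of all genes (968 higher and 1856 lower). The median was -0.01 against -0.04 over all genes, and -0.02 against -0.05 with each array centred over all probe sets. Above the Olfr level 8 of 24 genes were higher at this p and 2 were lower, against 5.27% and 7.76% of the 13218 genes above that level. Cyp4f15, known to be lower in ketogenic than in fed samples, is in these counts, and the ketogenic arrays are the same. Without it 8 of 55 genes were higher at this p and 4 were lower, and the groups did not overlap for 9. Above the Olfr level 7 of 23 were then higher and 2 lower. The higher genes, beside Cyp2d22, were Cyp4f15 (0.97, adjusted p = 0.114 from limma), Cyp2j9 (0.62), Cyp1b1 (0.57, adjusted p = 0.0865), Cyp4f14 (0.52, adjusted p = 0.0986), Cyp2j6 (0.31), Cyp4f13 (0.29), Cyp20a1 (0.24) and Cyp2b9 (0.45, below the Olfr level). The 4 lower genes were Cyp4x1 (-0.29), Cyp26c1 (-0.26), Cyp2d26 (-0.21) and Cyp2g1, known from olfactory mucosa (-0.25), of which Cyp2d26 and Cyp2g1 were below the Olfr level. Cyp26c1 was above that level in ketogenic (mean 4.05) but not in fasted samples (3.80). Cyp1b1 was above it in fasted (4.37) but not in ketogenic samples (3.80). The astrocyte markers were higher in fasted than in ketogenic samples as well, with a median of 0.48 and 4 of 11 at an adjusted p under 0.05 (0 without fasted array 1 or ketogenic array 2, 1 without fasted array 3 or ketogenic array 1 or 4, and 2 without fed array 3 or 4), and the part of this difference was not tested. Without fasted array 2 and fed array 2 the P450 genes called were Cyp2d22 and Cyp4f14, against 0.39% of all genes.

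Genes that supply or regulate P450 enzymes were read from fixed lists. None of the 8 measured redox partners passed in any comparison. Ferredoxin Fdx1, which feeds the mitochondrial enzymes, had the 1 unadjusted p under 0.05 (log2 fold change -0.25 between fasted and fed samples, unadjusted p = 0.039, adjusted p = 0.693 from limma). The oxidoreductase Por had no probe set of its own and was not analysed here. None of the 7 measured genes of haem synthesis passed.

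Of 15 measured regulators of P450 genes none passed. Ppara, the fatty acid receptor that drives the Cyp4a genes in liver, had values of 7.15, 6.69 and 7.16 on the fasted arrays, 6.42, 5.22, 6.67 and 6.08 on the ketogenic arrays and 7.11, 7.10, 7.29 and 7.20 on the fed arrays. The ketogenic arrays were below all others and spread widely, with ketogenic array 2 the lowest. The difference between ketogenic and fed samples was -1.08 log2 (standard error 0.25, adjusted p = 0.0858 from limma). The retinoid receptors Rxrg (0.32) and Rara (0.26) and the glucocorticoid receptor Nr3c1 (-0.15) had an unadjusted p under 0.05 in the same comparison, as did Rarg (-0.20) between fasted and fed samples and Ppara (0.90) and Rxrg (-0.34) between fasted and ketogenic samples.

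Of 10 measured genes of epoxide hydrolysis and eicosanoid synthesis, which act beside P450 enzymes on arachidonic acid, 2 were lower in ketogenic than in fed samples at an adjusted p under 0.05 (limma) and none was higher, beside 0.765% and 0.118% of all genes. The list did not go 1 way. At an unadjusted p under 0.05, 3 of the 10 were higher and 3 lower, beside 7.39% and 6.53% of all genes. The groups did not overlap for 7 genes, 4 higher and 3 lower, beside 10.7% of all genes (1203 higher and 960 lower), and the median was 0.07. The 2 that passed were named after their values were seen. Ephx2, the soluble epoxide hydrolase that turns P450 epoxides into diols, had values of 7.58, 7.27 and 7.58 on the fasted arrays, 6.96, 7.19, 7.28 and 7.11 on the ketogenic arrays and 7.54, 7.998, 7.97 and 7.99 on the fed arrays. Every ketogenic array was below every fed array, and Ephx2 fell by 0.74 on the log2 scale (standard error 0.12, adjusted p = 0.0239 from limma). Ptgds, the prostaglandin D2 synthase, fell by 0.43 (standard error 0.07, adjusted p = 0.0239 from limma), and it was higher in fasted than in ketogenic samples (0.45, adjusted p = 0.0432). In ketogenic against fed samples Ephx2 no longer passed when ketogenic array 1, 2 or 4, or any fed array but the first, was left out (adjusted p from 0.0548 to 0.0937, limma). Ptgds did not pass there when ketogenic array 1, 2 or 4, or any fed array but the second, was left out (adjusted p from 0.0522 to 0.0992), and between fasted and ketogenic samples leaving out ketogenic array 3 or fed array 2 kept the call and leaving out any other single array ended it.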

How the data were processed

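Hippocampal mRNA bound to tagged astrocyte ribosomes was amplified, biotin-labelled and measured on Affymetrix exon arrays of the mouse, with 1 value per gene-level probe set. The authors used Partek to obtain RMA values (genome build mm9, per the submitters' processing notes) by a method that corrects background, brings arrays to 1 distribution and summarises probes, and the deposited values were read as log2, since the log base is not stated. Of 115830 probe sets 25539 had 1 gene symbol in the platform annotation, 2300 several and 87991 none listed. The P450 genes and all lists were chosen with earlier results of these data known.

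The mean of each diet was fitted to all 11 arrays in limma 3.58.1 (R 4.3.3) with empirical Bayes moderation and Benjamini-Hochberg adjustment over 20259 genes, with no filter on low values. The fit was tested on simulated data. A gene passed at an adjusted p under 0.05. The genes named were Cyp4f15, the P450 genes above the Olfr level or with an unadjusted p under 0.05 in any comparison, redox partners and regulators with such a p, Por, and defining cell type markers. Alternatives were other centrings, array weights, the median over probe sets, a filter at the Olfr level, only the arrays of the 2 diets compared, the methods' t-test, a trended prior, a replicate block, and leaving out arrays. RefSeq (GRCm38.p6) gave gene order and promoters, and its coordinates were not set against those of the arrays. The number of arrays limits the precision.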

Additional observations from a re-analysis of the deposited data

Results flagged for a closer look

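The groups of 4 arrays of the 29 named P450 genes were searched for a single array far from the others, which made 58 groups, and chance gives such an array in about 1 in 20 of them. There were 2. Cyp2d9 read 4.21 on ketogenic array 2, while the other ketogenic arrays read 4.06. Cyp2s1 read 4.60 on fed array 2, an array that stood apart as a whole, while the other fed arrays ran from 4.961 to 4.996.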

How the results depend on the processing

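No P450 difference that passed changed its sign under any alternative. Of the log2 fold changes of named P450 genes under the alternatives, 1749 kept their side of the threshold and their direction or size, 16 newly passed, 46 no longer passed and 1 moved by more than the spread between arrays. Most of these differences were not called at first, and several alternatives cannot alter a fold change, so the 1749 are no measure of stability. The 46 all fall on the 4 calls between ketogenic and fed samples and the 1 between fasted and ketogenic samples. The 4 genes called lower in ketogenic than in fed samples, 3 without Cyp4f15, whose difference was known, became 7 (6 without it) with array weights, 7 (6 without it) with only the genes above the Olfr level, 1 (Cyp4f14) with each array centred on its median over all probe sets, and 0 with the methods' t-test. Of all genes tested, 0.884% were called in either direction in the main fit, 1.91% with array weights and 2.13% with only genes above the Olfr level. The shares were 0.35% with that centring and 0.0592% with the t-test. When 1 array was left out the P450 calls ranged from 0 to 5 (0 to 4 without Cyp4f15). They were 0 without ketogenic array 1, 2 or 4 (0.00987%, 0.00494% and 0.00987% of all genes) and 1 without fed array 3 or 4 (0.237% and 0.242%). That centring, leaving out arrays of the diet not compared and the counts without Cyp4f15 were chosen after seeing the data. The 1 gene called higher in fasted than in ketogenic samples became 4 with array weights (3 without Cyp4f15) and 2 without fasted array 2 and fed array 2. Of all genes 0.281% were called in the main fit, 0.928% with array weights and 0.39% without these 2 arrays. The P450 count became 0 with the t-test (0.0296% of all genes), with a trended prior (0.262%), with only the arrays of the 2 diets (0.168%) and with each array centred over all probe sets (0.153%). It ranged from 0 to 1 when 1 array was left out, with 1 without fed array 2 (0.8% of all genes). The 6 genes at an unadjusted p under 0.05 between fasted and fed samples became 3 with array weights, 3 with either centring and 3 without both of these arrays, and without 1 array they ranged from 2 (without fasted array 2) upward to 7, with 3 without ketogenic array 1 or 3. The causes were not tested.

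Samples of the same number did not deviate together in every pair (correlations from -0.118 to 0.183), though those of fasted and fed samples were all positive (0.044, 0.183 and 0.131). Samples of different numbers were not compared, so whether the numbers pair the samples was not settled. With a replicate block, 0 P450 genes were called in each comparison, where 0.0296% of all genes or fewer were called. In that fit 2 P450 genes had an unadjusted p under 0.05 between fasted and fed samples.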

Other observations

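Of the 32 probe sets shared by several genes with a P450 among them, 2 lay above the Olfr level. The set of Cyp4f16, Cyp4f40 and Cyp4f17 read 4.01 to 4.11 on the fasted arrays, 3.86 to 4.02 on the ketogenic arrays and 4.03 to 4.18 on the fed arrays, and its ketogenic and fed arrays did not overlap. The set of Cyp2d40, Cyp2d10 and Cyp2d9 read 4.10 to 4.15 on the fasted arrays, 3.80 to 4.34 on the ketogenic arrays and 4.24 to 4.46 on the fed arrays, with fasted below fed arrays throughout. Of the 6 P450 genes with more than 1 probe set, Cyp2c38 had sets at 6.68 and 2.62 and Cyp2u1 sets at 4.88 and 2.40, so for these genes the reading above the Olfr level rests on 1 set. The same holds for Cyp3a44, Cyp21a1 and Cyp2j12 when shared sets are counted. Their shared sets read 2.67 and 2.34 (Cyp3a44), 2.95 (Cyp21a1) and 3.28 (Cyp2j12), below that level.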
